A study of Arabidopsis lyrata subsp. lyrata with 8 samples.

Results

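The genes described here are class III peroxidases of Arabidopsis lyrata ssp. lyrata, leaving out those set apart as root hair peroxidases. They were chosen by 60 A. thaliana locus codes of the family: a gene model of the array was a member if its name contained one of these codes. This found 18 models for 18 codes among 32386 gene models, 12409 of which carry a locus code; the other 42 codes matched no model name and were not analysed here. Members are named by the A. thaliana symbol of their code (PRX with the family number), so a name stands for the A. lyrata counterpart given in the array design. The samples were healthy roots and flower buds of 6-week-old plants, grown in hydroponic culture with no treatment named and with seed labelled col 0. Each tissue had 4 replicates, which the study defines as biological ones, each pooled from 8 to 10 plants. Each was labelled with 1 dye (Cy3) and hybridised to 1 array of a custom Agilent slide.

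Class III peroxidases are heme enzymes that plant cells secrete into the wall and the vacuole. They use hydrogen peroxide to oxidise phenolics, which joins monolignols into lignin and links wall proteins such as extensins, and they can also make reactive oxygen that loosens walls or meets microbes. The family is large and arose by repeated gene duplication, and in A. thaliana many members are known from roots while a few act in the anther or the seed coat. The hydrogen peroxide they use is supplied in part by NADPH oxidases of the plasma membrane, and laccases are a second family of enzymes that polymerise lignin.

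Within the root, pairs of arrays differed far more than the repeated spots of an array do, with a variance ratio of 4.76 to 19.4. In flower bud the difference between arrays 1 and 2 was smaller than that between such spots (ratio 0.787), as was that between arrays 3 and 4 (0.902). Arrays 1 and 2 were therefore averaged to flower bud sample A, and arrays 3 and 4 to sample B, which left 4 root and 2 flower bud samples and limits the precision. This rests on averaging the log2 values of spots: with signals averaged first, the ratios of these pairs were 2.21 and 1.81, above 1, against 5.17 to 26.9 for the other pairs. With all 8 arrays as separate samples the calls of the 18 peroxidases were the same. The signal at the 75th percentile was 2541 to 4499 units in root and 4716 to 5054 units in flower bud. Root markers on the array (CASP1, CASP2, PHT1;2, WER and BRN1) were called higher in root, 5 of 5, against 23.7% of all models tested. Flower markers (AP1, AP3, PI and SEP3) were called higher in flower bud, 4 of 4, against 27.7%. Both went as labelled, and AG was not found by name. Of these markers, PHT1;2, WER, BRN1, CASP2 and AP1 passed the filter on dim signals through their high tissue alone. In whole organs, fewer cells of a type and less RNA per cell cannot be told apart. Each tissue filled its own row of the slide, so row and tissue cannot be told apart.

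Levels below are log2 signal relative to the 75th percentile of the array, so that 0 is that percentile, and differences are root minus flower bud on that log2 scale, ± standard error, from 4 root and 2 flower bud samples. Each adjusted p is from limma with Benjamini-Hochberg adjustment over all 26420 models tested, and a model was called at an adjusted p under 0.05 with a fold of at least 2.

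Most of the peroxidases were higher in root, 4 were higher in flower bud, and 2 were called in neither direction. Of the 18 models, 12 were called higher in root, where 23.7% of all models tested were, and 4 higher in flower bud, where 27.7% of all models were; among models with a locus code these shares were 24.0% and 25.5%. The median difference of the peroxidases was 2.74, against -0.03 for all models. The differences ran from -13.54 for PRX65 to 12.10 for PRX28. By at least 16-fold, 7 members were called toward root and 1 toward flower bud, against 6.37% and 9.81% of all models. The 1 toward flower bud was PRX65, and PRX15 was among the 7. Both passed the filter on dim signals through 1 tissue alone, so a difference was built into their selection. The root and flower bud samples of all 18 members did not overlap, with root above for 14 and flower bud above for 4. This held for 80.7% of all models tested, with root above for 39.4% and flower bud above for 41.3%.

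**Figure D1:**
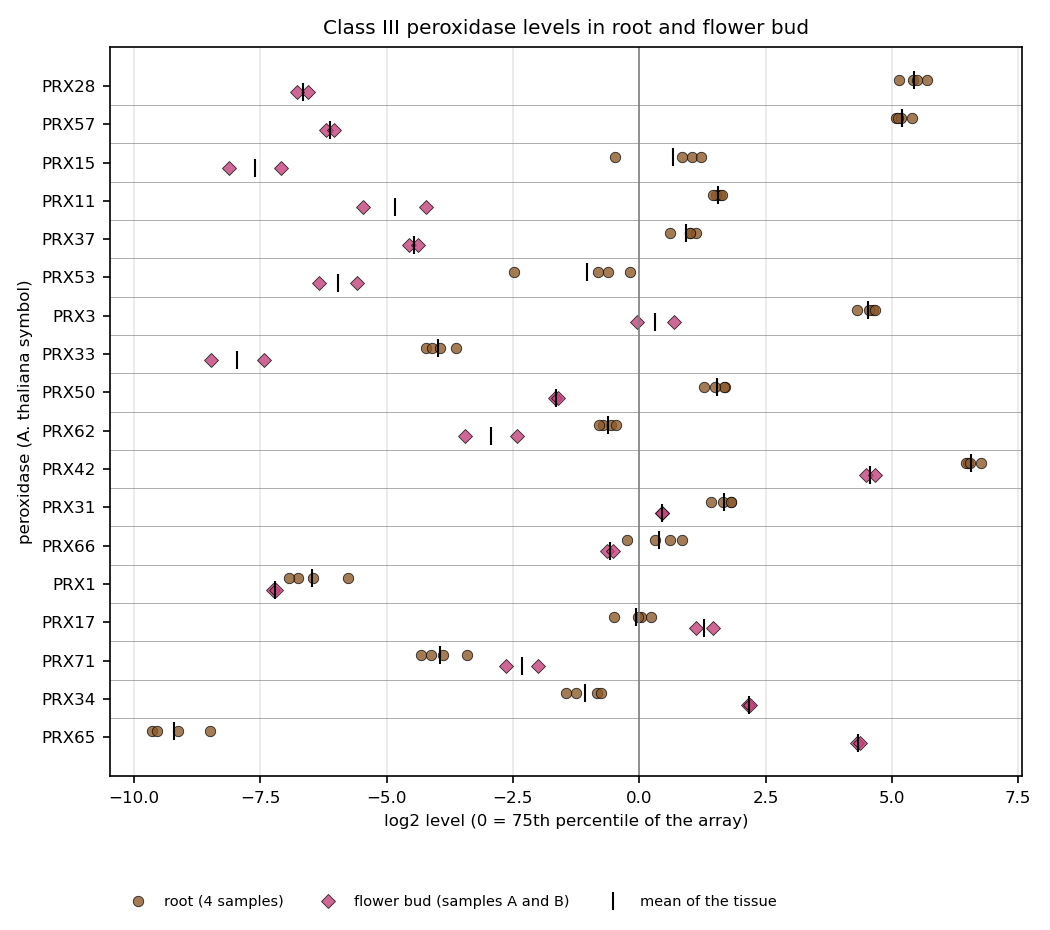
Log2 level of each of the 18 peroxidases (x axis, 0 is the 75th percentile of the array) in the 4 root samples (circles) and in flower bud samples A and B (diamonds), with a short bar at the mean of each tissue; members are ordered from highest in root over flower bud at the top to highest in flower bud over root at the bottom. PRX28 and PRX57 lie at 5.07 to 5.68 in root and at -6.77 to -6.03 in flower bud, and PRX65 lies at 4.30 and 4.37 in flower bud.

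All 18 models passed the filter on dim signals, which asked for a signal well above background on every array of at least 1 tissue. Of these, 15 were well above background on all 8 arrays; 10 of them were called in the root direction and 3 in the flower bud direction, against 22.6% and 20.2% of all models so measured. The other 3 passed through 1 tissue alone: PRX65 through flower bud, and PRX15 and PRX33 through root, so that a difference was built into their selection. In the tissue where these 3 were dim their levels were near background, which limits their folds. PRX42, PRX62, PRX65, PRX66 and PRX71 had 1 spot per array, so their scatter within an array is not known.

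PRX65 (AT5G47000) had the widest difference of the 18. Its level was -9.14, -8.51, -9.65 and -9.55 in root replicates 1 to 4, against 4.30 and 4.37 in flower bud samples A and B. No root array gave a signal well above background, with root signals of 3.39 to 10.03 units, against 97647 to 100682 units on the flower bud arrays. The root level was then set, on each array, to the higher of its own and the lowest signal well above background. With background as subtracted in the scanner files, the flower bud level of PRX65 was at least 7224-fold that root level. No p is given, since PRX65 passed the filter through flower bud alone and a difference was built into its selection. The size of the fold depends on how background is treated. With normexp background correction PRX65 was at -9.92, a 972-fold difference, which is smaller than the bound. Normexp, here and below, added an offset of 50 units to each signal, which lowers folds where a signal is dim. The part of the offset in the lower folds was not tested.

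PRX34 (AT3G49120), which in A. thaliana contributes to the apoplastic oxidative burst against microbes, was next among those higher in flower bud. Its level was -1.24, -0.84, -0.77 and -1.45 in root, against 2.15 and 2.19 in flower bud. Both flower bud samples lay above every root sample, and the difference was -3.24 ± 0.22, a 9.47-fold higher level in flower bud (adjusted p = 2.11e-05).

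PRX33 (AT3G49110), which acts with PRX34 in that burst in A. thaliana, was higher in root. Its level was -4.22, -4.10, -3.63 and -3.94 in root, against -7.43 and -8.48 in flower bud. The difference was 3.98 ± 0.32 (15.8-fold). No p is given, since PRX33 passed the filter through root alone and a difference was built into its selection. Its signal was well above background on 2 of the 4 flower bud arrays, and with normexp it was 4.10-fold higher in root. The array names place PRX33 and PRX34 close to each other, as models 1254 and 1256 of scaffold 5, with 1 model of another code between them. In A. thaliana the pair is very alike in sequence, and how far each probe also binds the other transcript was not tested, since probe sequences were not used here.

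PRX71 (AT5G64120), linked to lignin and defence in A. thaliana, was also higher in flower bud. Its level was -4.32, -4.12, -3.89 and -3.41 in root, against -2.01 and -2.64 in flower bud. The difference was -1.61 ± 0.30 (3.05-fold, adjusted p = 0.00275). Every root sample lay below both flower bud samples, which stood 0.63 apart.

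PRX17 (AT2G22420), found in lignified tissues of A. thaliana and a target there of the MADS-box factor AGL15, was higher in flower bud by a smaller amount. Its level was 0.23, 0.04, -0.03 and -0.50 in root, against 1.13 and 1.45 in flower bud. The difference was -1.36 ± 0.23 (2.56-fold, adjusted p = 0.00177). Unlike PRX65, PRX17 gave a clear signal in both tissues, 1798 to 5293 units on root and 10883 to 13410 units on flower bud arrays.

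**Figure D2:**
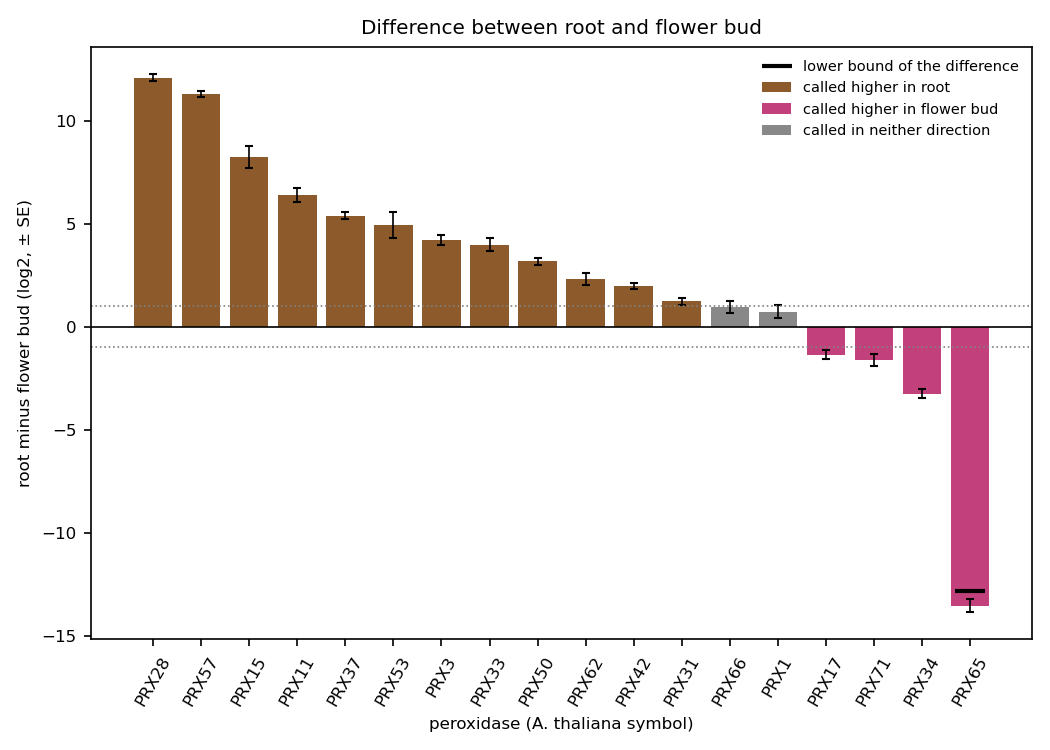
Root minus flower bud difference of each peroxidase (y axis, log2, bars start at 0) with its standard error, from 4 root and 2 flower bud samples. Bars are coloured by call and the dotted lines mark a 2-fold difference. The thick mark is the lower bound for PRX65 with background as in the scanner files. Above the upper line lie 12 members, and 4 lie below the lower one.

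PRX66 (AT5G51890) and PRX1 (AT1G05240) were called in neither direction. PRX66, known from tracheary elements of the xylem in A. thaliana, was at 0.84, 0.61, 0.31 and -0.24 in root, against -0.63 and -0.52 in flower bud. Root lay above flower bud in every sample, and the difference of 0.96 ± 0.30 had an adjusted p = 0.0259 but stayed just under 2-fold (1.94-fold). Without root replicate 4 it was 1.16 and passed (adjusted p = 0.00196), as it did with array medians made equal, at 1.24. With the spike-in scaling over all spots described below, it turned to -0.30 (adjusted p = 0.709).

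PRX1, which acts on extensins of root hairs in A. thaliana together with PRX44 and PRX73, was dim in both tissues. Its level was -6.75, -6.46, -6.93 and -5.76 in root, against -7.24 and -7.19 in flower bud, or 26.9 to 47.6 units on root and 31.8 to 36.9 units on flower bud arrays. The difference was 0.74 ± 0.33 (adjusted p = 0.0794), and its repeated spots differed by up to 1.28 on the log2 scale within an array. It passed as higher in root with quantile normalization (1.64, adjusted p = 0.00406) and with equal medians (1.02, adjusted p = 0.0366), and was at 0.04 or -0.51 with the 2 versions of spike-in scaling. PRX3, its neighbour by name as model 477 of scaffold 1 after PRX1 at 476, was bright in root and was called, as given below.

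PRX42 and PRX31 gave strong signals in both tissues and were higher in root by smaller folds. PRX42 (AT4G21960) was at 6.51, 6.47, 6.55 and 6.76 in root, against 4.48 and 4.66 in flower bud, with a difference of 2.00 ± 0.14 (4.00-fold, adjusted p = 2.52e-05). PRX31 (AT3G28200) was at 1.82, 1.66, 1.82 and 1.42 in root, against 0.45 in both flower bud samples, with a difference of 1.23 ± 0.16 (2.35-fold, adjusted p = 4.83e-04). No sample of one tissue reached the range of the other for either gene. PRX31 lost its call when arrays were scaled to spike-in RNAs, at 0.53 (adjusted p = 0.311) or -0.03 (adjusted p = 0.976) in the 2 versions, and PRX42 did in 1 of them, at 0.74 (adjusted p = 0.334).

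PRX62 (AT5G39580), which with PRX69 supports root hair growth in the cold in A. thaliana, and PRX50 (AT4G37520) were higher in root by a moderate amount. PRX62 was at -0.55, -0.45, -0.72 and -0.79 in root, against -2.42 and -3.44 in flower bud, a difference of 2.30 ± 0.29 (4.94-fold, adjusted p = 4.02e-04). PRX50 was at 1.69, 1.67, 1.49 and 1.28 in root, against -1.67 and -1.61 in flower bud, a difference of 3.17 ± 0.16 (9.03-fold, adjusted p = 4.61e-06). The flower bud samples of PRX62 stood 1.03 apart, while those of PRX50 were 0.06 apart. PRX62 lost its call in 1 version of spike-in scaling, at 1.05 (adjusted p = 0.167).

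PRX3 (AT1G05260), also called RCI3, is induced by cold in A. thaliana and is one of the peroxidases that lignify the Casparian strip there. Of the 5 codes listed for the Casparian strip (PRX3, PRX9, PRX39, PRX64 and PRX72), it was the 1 on the array by name. Its level was 4.62, 4.55, 4.67 and 4.30 in root, against -0.05 and 0.68 in flower bud. It was thus high in root and still near the 75th percentile of the array in flower bud, with a difference of 4.22 ± 0.23 (18.7-fold, adjusted p = 6.63e-06). Of the 2 codes listed for the tapetum wall (PRX9 and PRX40) and the 1 for the seed coat (PRX36), 0 were found by name.

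PRX37 (AT4G08770), whose excess stunts growth in A. thaliana, and PRX53 (AT5G06720), an enzyme of known crystal structure in A. thaliana, were higher in root by wider margins. PRX37 was at 1.01, 1.12, 1.00 and 0.60 in root, against -4.55 and -4.38 in flower bud, a difference of 5.40 ± 0.18 (42.2-fold, adjusted p = 6.84e-07). PRX53 was at -0.82, -0.62, -0.18 and -2.49 in root, against -6.35 and -5.58 in flower bud, a difference of 4.94 ± 0.64 (30.6-fold, adjusted p = 4.70e-04). The spread of PRX53 came mostly from 1 root sample, replicate 4. The repeated spots of PRX37 differed by 1.87 on flower bud array 4, the widest gap among the members with 2 spots. On the other arrays they differed by 0.04 to 0.17. Array 4 was at -3.95 for PRX37, against -4.82 for array 3, with which it was averaged to sample B.

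PRX11 (AT1G68850) and PRX15 (AT2G18150) came next by size of difference. PRX11 was at 1.60, 1.53, 1.63 and 1.46 in root, against -5.47 and -4.21 in flower bud, a difference of 6.40 ± 0.33 (84.2-fold, adjusted p = 4.70e-06). PRX11 was 130-fold higher in root without flower bud sample B and 54.5-fold higher without sample A. The 4 root samples of PRX11 lay between 1.46 and 1.63, while the flower bud samples stood 1.26 apart.

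PRX15 was at 1.05, 0.84, 1.21 and -0.48 in root, against -8.11 and -7.10 in flower bud. The difference was 8.26 ± 0.53 (307-fold). Its signal was well above background on 2 of the 4 flower bud arrays, and with normexp it was 81.4-fold higher in root. The fold is thus known only roughly. No p is given, since PRX15 too passed the filter through root alone and a difference was built into its selection.

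PRX28 (AT3G03670) and PRX57 (AT5G17820) were the most root-biased of the 18. PRX57 is in A. thaliana one of the peroxidase genes repressed by UPBEAT1, a factor that sets where root cells stop dividing and begin to elongate. PRX57 was at 5.07, 5.18, 5.39 and 5.11 in root, against -6.20 and -6.03 in flower bud, a difference of 11.31 ± 0.15 (2532-fold, adjusted p = 4.22e-08). PRX28 was at 5.14, 5.41, 5.68 and 5.50 in root, against -6.56 and -6.77 in flower bud, a difference of 12.10 ± 0.18 (4383-fold, adjusted p = 4.66e-08). Each gave a signal well above background on every array: root signals were at least 87868 units, against 42.9 to 85.7 units in flower bud, and root and flower bud samples lay far apart for both. With normexp the folds were 1268 for PRX57 and 1702 for PRX28.

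Samples of 1 tissue differed for some members. Flower bud sample B exceeded sample A by over 1 for PRX11 (1.26) and PRX15 (1.02), and lay below it by over 1 for PRX33 (-1.05) and PRX62 (-1.03). These 4 of 18 members (22.2%) compare with 5.11% of all models tested, without a test, since each side is 1 sample; PRX15 and PRX33 were well above background on 2 of the 4 flower bud arrays, so their gaps rest on signals near background. Of the tapetum markers 3 of 3 were higher in sample B, A9 by 2.24, AMS by 1.42 and GRP19 by 0.88, with list medians of 1.46 in A and 2.88 in B, while the pollen markers VGD1 and AGP11 differed by 0.03 and 0.12; their part in the peroxidase differences was not tested.

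Root replicate 4 lay below the mean of root replicates 1 to 3 by over 1 for PRX53 (-1.95) and PRX15 (-1.51). For PRX1, which was dim in both tissues, root replicate 4 lay above that mean by 0.95. Without root replicate 4 the differences between tissues were 5.42 for PRX53 and 8.64 for PRX15, both still called. Genes induced by low oxygen were also lower in root replicate 4, by over 1 for 4 of 5 (PDC1, PCO1, HRA1 and LBD41) with list medians of 1.70, 1.19, 1.71 and -1.89 in root replicates 1 to 4, against -0.40 and -0.54 in flower bud samples A and B. The green tissue marker RBCS1B, the 1 of 3 found, was higher in that replicate by 2.51. It was well above background on 2 of the 4 root arrays, so this gap rests in part on signals near background. The part of RBCS1B or of the low oxygen genes in the peroxidase values was not tested. The list medians of the 18 peroxidases were 0.92, 0.72, 0.66 and -0.36 in root replicates 1 to 4. Gene by gene, replicate 4 minus the mean of replicates 1 to 3 had a median of -0.33, with PRX28 and PRX57 at 0.09 and -0.10. Over 1 in either direction were 2 of 18 members, against 8.02% of all models.

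**Figure D3:**
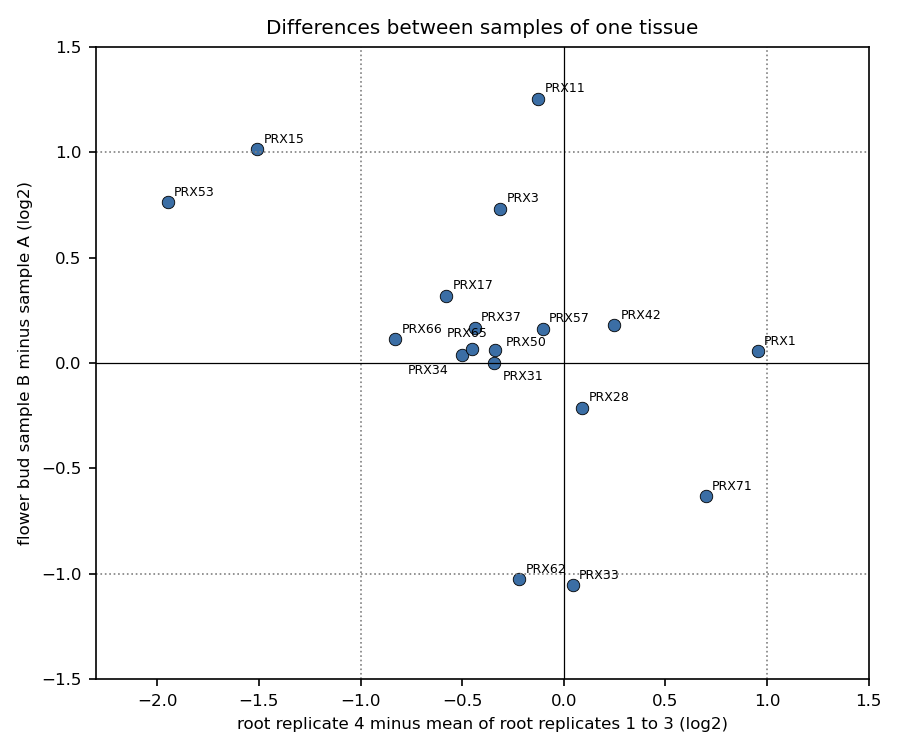
Each point is 1 of the 18 peroxidases, with root replicate 4 minus the mean of root replicates 1 to 3 on the x axis and flower bud sample B minus sample A on the y axis, both log2; dotted lines mark a 2-fold difference. PRX53 and PRX15 lie left of -1, PRX11 and PRX15 above 1, and PRX33 and PRX62 below -1.

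The scaling between arrays moved all differences together. Scaled to the median of the 7 spike-in probes (of 10) that were well above background on every array, differences were lower by 0.70, and the flower bud took 73.3% of all calls, against 53.9% at the 75th percentile. Under it 11 peroxidases were called toward root (14.9% of all models) and 4 toward flower bud (41.0%), and PRX31 lost its call. This version was put in place of another, the median over all spike-in spots, after the values of that one had been seen. With all spike-in spots, differences were lower by 1.26, the flower bud took 82.0% of all calls, and 9 peroxidases were called toward root (9.95% of all models) and 4 toward flower bud (45.4%). PRX31, PRX42 and PRX62 then lost their calls, and PRX1, PRX31 and PRX66 turned to the flower bud side without a call. Equal array medians raised differences by 0.28 and gave 14 (29.2% of all models) and 4 (24.2%), with PRX66 and PRX1 added. The 4 members higher in flower bud were called so under each scaling and background correction run. Where at least 4-fold was asked for, PRX17, PRX31 and PRX71 lost their calls, leaving 11 members higher in root (13.3% of all models) and 2 in flower bud (18.9%).

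**Figure D4:**
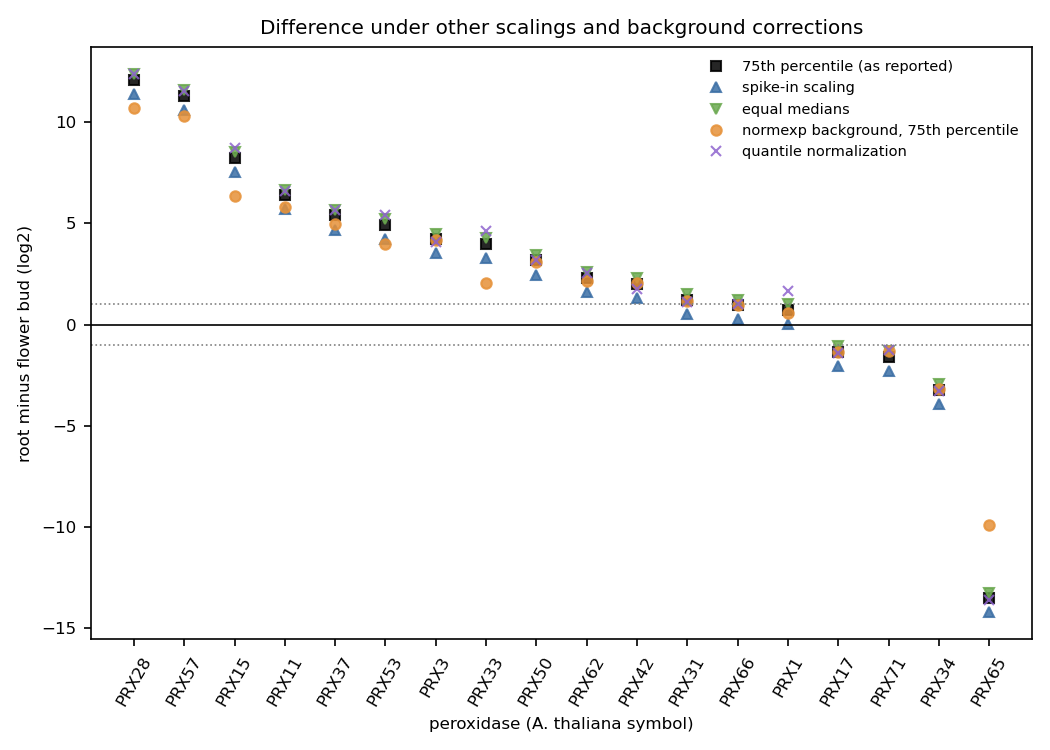
Root minus flower bud difference of each peroxidase (y axis, log2) as reported, scaled to the 75th percentile (squares), and with spike-in scaling, equal medians, normexp background correction and quantile normalization; dotted lines mark a 2-fold difference. The spike-in and median scalings shift all members alike, whereas normexp brings PRX65 to -9.92 and PRX33 to 2.04.

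Genes that work beside these peroxidases were counted from lists chosen by function. A gene of these lists that was not well above background on any flower bud array was tested because root was high, so a difference was built into its selection and its fold is given with no p. NADPH oxidases make the superoxide from which hydrogen peroxide forms; 5 of 10 were on the array, of which 4 were called toward root (23.7% of all models) and 0 toward flower bud (27.7%), and their median difference was 3.84. Of the 3 well above background on all 8 arrays, 2 were called toward root, against 22.6% of all models so measured. With background as in the scanner files, root was at least 309-fold the flower bud level for RBOHG and 60.9-fold for RBOHB. Both passed the filter through root alone, and with normexp their folds were 50.4 and 10.2, below these bounds. RBOHF, which supplies the Casparian strip peroxidases in A. thaliana, was at 0.64 ± 0.24 (adjusted p = 0.0460), under 2-fold. It was called at 1.04 without flower bud sample B (adjusted p = 0.00562) and turned to -0.06 with spike-in scaling.

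Laccases were found for 11 of 17 codes: 9 were called toward root (23.7% of all models) and 0 toward flower bud (27.7%), and their median difference was 3.70. LAC8, LAC9 and LAC16 passed the filter through root alone. Of the 8 well above background on all 8 arrays, 6 were called toward root, against 22.6% of all models so measured. The median of these 8 was 2.56. With background as in the scanner files, the root level of LAC9 was at least 2179-fold that of flower bud. With normexp it was 321-fold, below that bound. LAC7 was at 10.54 ± 0.24 (adjusted p = 1.34e-07). LAC17, which with LAC4 builds stem lignin in A. thaliana, was at 0.75 ± 0.19 and LAC12 at 0.91 ± 0.15, both under 2-fold; both were called with equal medians and turned negative in the spike-in scaling over all spots. LAC4 was at 1.40 ± 0.37 (adjusted p = 0.0130), and was at 0.70 (adjusted p = 0.137) with spike-in scaling and at 1.05 (adjusted p = 0.0981) without flower bud sample A.

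Of 4 root hair peroxidases sought, PRX7 and PRX60 were found by name, and both passed the filter through root alone. With background as in the scanner files, their root levels were at least 2828-fold and 504-fold those of flower bud. With normexp they were 412-fold and 78.4-fold higher, below these bounds. Of 8 Casparian strip genes sought, CASP1, CASP2 and CASP5 were found, at a median difference of 9.48. CASP2 and CASP5 passed the filter through root alone, and CASP1, well above background on all 8 arrays, was called higher in root at 9.48 ± 0.41 (adjusted p = 2.07e-06).

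The ascorbate peroxidase list, named for heme enzymes of another class that clear hydrogen peroxide inside the cell, had calls in both directions. Of 7 found (8 sought), 4 were called toward root (23.7% of all models) and 3 toward flower bud (27.7%), and the median difference was 1.27. With spike-in scaling 2 were called toward root (14.9% of all models), as APX1 (0.57) and SAPX (0.79) lost their calls, and with all spike-in spots 1 was (9.95% of all models). APX2, a cytosolic form, was at 3.53 ± 0.45 (adjusted p = 4.39e-04), and APX5 was at 2.57 ± 0.28 (adjusted p = 1.98e-04). APX4, of the thylakoid lumen, was at -5.04 ± 0.32 (adjusted p = 1.36e-05), and TAPX, of the thylakoid membrane, at -2.83 ± 0.18 (adjusted p = 1.49e-05).

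**Figure D5:**
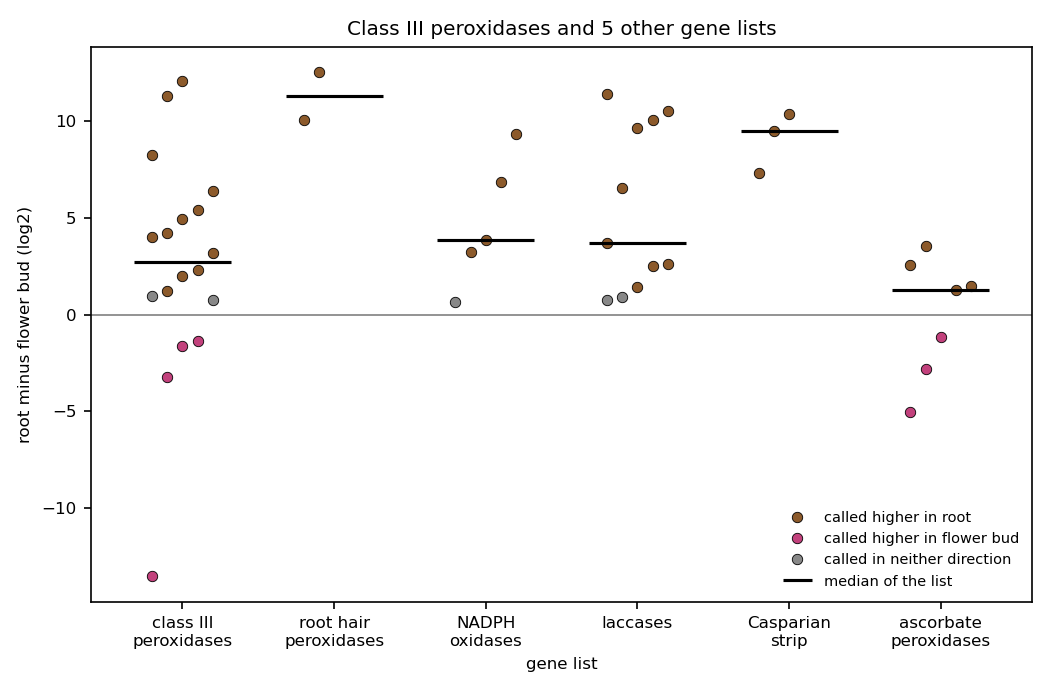
Root minus flower bud difference (y axis, log2) of each model in the class III peroxidases and in 5 other lists (x axis), coloured by call, with a bar at the median of each list. The class III and the ascorbate peroxidases have members on both sides of 0, and the calls in the other 4 lists are higher in root.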

How the data were processed

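The scanner files give spot intensity values, background-subtracted by Agilent Feature Extraction 10.10.1.1 per the file headers, with no normalization across arrays; lines after the 62976 features were dropped. Marks for outlying, saturated or well measured spots (other columns) are as deposited, per the file headers. The value table deposited by the authors holds log2 values. Compared with scanner values on each array, it equalled signal minus the 75th percentile, centred on probe medians (r at least 0.99999), and scale, centring and direction are known from this comparison only. Medians of its root columns were 0.02, -0.05, 0.06 and 0.09, and those of its flower bud columns -0.04, -0.05, -0.03 and 0.06.

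Without outlier spots, log2 signals were averaged per probe and set relative to the 75th percentile of non-control probes; 15 probes lacking a usable spot on some array were dropped. A probe passed on an array if 0.5 or more of its spots were well above background. For 477 models with 2 probes the brighter was used, while each peroxidase had 1. Models passing on all 4 arrays of a tissue were fitted with limma 3.58.1 (lmFit, eBayes) in R 4.3.3. Lists are described without set tests. The fit was tested on simulated data. Python 3.11.15, numpy 2.4.6, pandas 2.3.3, data.table (1.17.8) and matplotlib 3.10.9 were also used.

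Members, lists, tests and the merging of arrays were chosen with earlier results of these data known. Values by sample were to be given for members called higher in flower bud or in neither direction, for the 10 largest called higher in root, and for those with a listed A. thaliana role; of other lists, for the 2 largest called members each way. PRX31, PRX42, LAC4, LAC12, LAC17 and RBOHF were named after their values were seen. Symbols were assigned by hand, since the files give codes only.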

Additional observations from a re-analysis of the deposited data

How the results depend on the processing

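Of the 18 peroxidases, 8 kept direction and call under each of 21 alternatives, and 3 (PRX15, PRX33 and PRX65) under the 20 that gave them a value, since they were not well above background on all 8 arrays. The exceptions were PRX1, PRX17, PRX31, PRX42, PRX62, PRX66 and PRX71. Of these, 3 changed direction, all with arrays scaled to the median over all spike-in spots: PRX1 (-0.51), PRX31 (-0.025) and PRX66 (-0.30), each without a call. That version was run first and replaced after its values were seen by the one over well measured spike-in probes; both are counted here. The median difference, 2.74 as reported, was 1.48 with all spike-in spots, 2.04 with the spike-in probes, 3.02 with equal medians, 2.11 and 2.21 with normexp and then the 75th percentile or quantiles, and 2.30 over models well above background on all 8 arrays. Counts higher in root and in flower bud were 9 (9.95% of all models) and 4 (45.4%) with all spike-in spots. At a 4-fold minimum they were 11 (13.3%) and 2 (18.9%). With 1 sample left out in turn the median was 2.65 to 2.98. With 1 root sample left out, 12 to 13 members were called toward root (23.3% to 24.1% of all models). Toward flower bud 4 were (27.3% to 28.1%). The replicate block (8 arrays, replicate number as a term) gave 12 (23.9%) and 4 (28.1%). Same-numbered arrays of root and flower bud deviated with correlations of -0.06, 0.04, -0.01 and -0.02. These values show no pairing by number, but with 2 flower bud samples they cannot exclude it. Averaging spot signals before log2, also chosen after seeing the data, changed no call of a peroxidase, but under it the flower bud arrays merged here would not have met the limit for merging (ratios 2.21 and 1.81). Signal near background limits the folds of PRX65, PRX15 and PRX33 and the level of PRX1. The cause of these shifts between settings was not tested.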
